A study of Mus musculus with 8 samples.

Results

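Tal1, Lyl1, Lmo2, Ldb1, Erg and Fli1 encode transcription factors and cofactors that act together in blood stem and progenitor cells, and the open chromatin around these 6 genes was examined here. Every ATAC-seq peak overlapping a gene body or the 50 kb on either side of it (GENCODE M21 annotation of GRCm38, the assembly called mm10) was taken. Peaks that overlapped by at least 1 bp in any of the 8 libraries were merged, which gave 159 regions at the 6 loci out of 123260 on chromosomes 1 to 19 and X. Tal1 had 17 regions, Lyl1 22, Lmo2 22, Ldb1 16, Erg 43 and Fli1 39. The choice used position only. ATAC-seq marks open chromatin by the insertion of sequencing adapters by the Tn5 transposase. Bone marrow of 4.5-month-old female mice (129Sv4/Jae x B6) was sorted into LSK+ cells (Lin- SCA-1+ c-KIT+, which hold the stem and multipotent cells) and LSK- cells (Lin- SCA-1- c-KIT+, the more committed progenitors). The mice were wild type (WT) or lacked both copies of Xist in blood cells (XistΔ/Δ), a deletion that the study made by crossing Xist 2lox mice with mice that carry Vav-iCre, a recombinase active in the blood lineage. Each of the 4 groups had 2 libraries from about 10000 cells per reaction, and whether the WT mice carried Vav-iCre is not given in the sources used here.

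TAL1 and LYL1 are related basic helix-loop-helix proteins that pair with E proteins and bind E-box sequences. LMO2 is an adaptor without DNA binding of its own, and LDB1 is the dimerizing cofactor that holds LMO2 and brings TAL1 and GATA factors together over distance. ERG and FLI1 are closely related ETS factors that bind sequences with a GGAA core. Tal1, Lyl1, Lmo2, Erg and Fli1 belong, with Gata2 and Runx1, to the set of factors known as the heptad, which co-occupies enhancers in stem and progenitor cells, including enhancers of the heptad genes themselves. Their genes are controlled from several promoters and from enhancers spread over long distances, among them a stem cell enhancer and an erythroid enhancer downstream of Tal1.

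A region is named here by its gene and by the distance of its summit from the most upstream start site of that gene, with a plus sign for downstream. Its value in a library is the percentile of its strongest peak by −log10 p within that library's own list (100 for the strongest peak of a list, 0 where none was listed). These are ranks of openness over a whole sorted population, so a region that is open in more cells and a region that is more open in each cell cannot be told apart. Regions with a summit no more than 3 kb from a start site are called promoters, and the others distal. Of the 159 regions, 22 were promoters of the 6 genes, 23 were promoters of other genes in the windows and 114 were distal.

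The libraries differed in ways that touch every comparison of ranks. The lists held 29829 to 91590 peaks, and the WT list was shorter than the XistΔ/Δ list in each cell type and replicate number. Replicate 1 and replicate 2 libraries carried different run codes, and the lists of replicates 1 held 63373 to 91590 peaks against 29829 to 63184 for replicates 2. The background fragment pileup, a measure of depth, ranged from 0.482 in LSK+ WT replicate 2 to 3.87 in LSK- XistΔ/Δ replicate 1. A peak at the Xist promoter was listed in 4 of 4 WT libraries and in 1 of 4 XistΔ/Δ libraries, LSK- XistΔ/Δ replicate 2, at percentile 26.9 against 51.2 to 80.6 in WT. The study calls the replicates biological, but the sources used here do not say that they came from separate animals, so p-values measure the spread between these libraries only. All p-values are two-sided and come from exact permutation of the labels within the other factor. With 36 assignments the smallest possible p was 0.0556, so no single region could pass 0.05 and none is called significant.

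The sequence at the summit of the highest-ranked distal region of each gene is given first, followed by the distal region with the largest difference in each direction among those whose 4 LSK+ and 4 LSK- libraries did not overlap. Each is 300 bases of the plus strand of GRCm38.p6, centred on the summit. Capitals mark the core of ETS sites, GGAA on either strand. They also mark the letters GATAA, which GATA factors recognise, on either strand. The E-box is the third motif in capitals and reads CANNTG. Where matches overlap they form 1 longer stretch of capitals.
Tal1 +39.5 kb (chr4:115095806-115096105, plus strand): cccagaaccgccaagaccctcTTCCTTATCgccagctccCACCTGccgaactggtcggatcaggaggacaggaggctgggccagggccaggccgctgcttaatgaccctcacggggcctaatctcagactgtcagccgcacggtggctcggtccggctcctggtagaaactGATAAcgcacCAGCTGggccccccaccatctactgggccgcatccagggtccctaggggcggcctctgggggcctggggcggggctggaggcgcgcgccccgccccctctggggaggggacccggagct
Lyl1 +36.4 kb (chr8:84737657-84737956, plus strand): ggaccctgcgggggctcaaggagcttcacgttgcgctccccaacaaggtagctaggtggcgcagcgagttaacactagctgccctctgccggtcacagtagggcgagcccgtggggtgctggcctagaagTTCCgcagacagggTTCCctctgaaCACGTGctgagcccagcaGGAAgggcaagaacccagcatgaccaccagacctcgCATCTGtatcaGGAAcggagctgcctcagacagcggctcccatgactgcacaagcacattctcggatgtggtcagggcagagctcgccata
Lmo2 -12.0 kb (chr2:103945818-103946117, plus strand): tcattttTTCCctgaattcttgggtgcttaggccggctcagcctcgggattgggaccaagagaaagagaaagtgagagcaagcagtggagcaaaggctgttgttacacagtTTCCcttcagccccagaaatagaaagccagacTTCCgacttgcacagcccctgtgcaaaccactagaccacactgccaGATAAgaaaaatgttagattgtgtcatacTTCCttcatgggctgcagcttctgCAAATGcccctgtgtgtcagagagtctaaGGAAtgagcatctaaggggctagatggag
Ldb1 +30.5 kb (chr19:46014591-46014890, plus strand): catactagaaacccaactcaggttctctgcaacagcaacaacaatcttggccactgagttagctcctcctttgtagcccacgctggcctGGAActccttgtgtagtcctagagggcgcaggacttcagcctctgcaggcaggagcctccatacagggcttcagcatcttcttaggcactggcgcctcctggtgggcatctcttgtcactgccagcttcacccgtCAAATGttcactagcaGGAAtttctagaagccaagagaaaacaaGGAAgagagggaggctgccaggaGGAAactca
Erg +147.3 kb (chr16:95439169-95439468, plus strand): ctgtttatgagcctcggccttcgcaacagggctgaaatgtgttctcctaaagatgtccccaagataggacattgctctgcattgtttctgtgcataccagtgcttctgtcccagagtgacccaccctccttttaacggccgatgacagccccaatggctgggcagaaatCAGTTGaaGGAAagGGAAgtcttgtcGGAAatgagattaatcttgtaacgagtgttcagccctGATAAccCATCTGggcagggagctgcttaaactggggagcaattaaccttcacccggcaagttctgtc
Fli1 -14.9 kb (chr9:32556361-32556660, plus strand): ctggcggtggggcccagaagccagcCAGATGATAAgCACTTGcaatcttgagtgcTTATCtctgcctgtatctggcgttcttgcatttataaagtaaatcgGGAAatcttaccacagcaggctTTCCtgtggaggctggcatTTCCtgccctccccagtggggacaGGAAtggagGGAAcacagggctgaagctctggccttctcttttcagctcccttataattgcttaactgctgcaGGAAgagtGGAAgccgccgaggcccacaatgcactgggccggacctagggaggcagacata
Lmo2 -27.0 kb (chr2:103930817-103931116, plus strand): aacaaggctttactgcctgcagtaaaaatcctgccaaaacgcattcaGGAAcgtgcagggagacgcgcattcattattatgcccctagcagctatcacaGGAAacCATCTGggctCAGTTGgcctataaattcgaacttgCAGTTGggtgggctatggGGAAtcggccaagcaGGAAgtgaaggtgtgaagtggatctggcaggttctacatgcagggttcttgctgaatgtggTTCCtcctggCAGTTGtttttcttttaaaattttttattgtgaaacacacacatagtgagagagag
Fli1 +64.8 kb (chr9:32476615-32476914, plus strand): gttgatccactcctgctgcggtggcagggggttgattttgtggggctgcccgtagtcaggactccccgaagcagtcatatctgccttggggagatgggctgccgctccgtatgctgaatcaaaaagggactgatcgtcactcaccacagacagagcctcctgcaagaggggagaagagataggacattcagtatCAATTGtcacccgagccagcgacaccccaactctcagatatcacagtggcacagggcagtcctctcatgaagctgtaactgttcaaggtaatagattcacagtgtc
The window of Fli1 -14.9 kb held 7 matches to GGAA, 2 to GATAA and 2 to CANNTG, and in its first E-box the last letter is also the first of a GATAA match. Tal1 +39.5 kb held 2 matches to GATAA and 2 to CANNTG, 1 of which read CAGCTG, beside 1 to GGAA. Erg +147.3 kb and Lmo2 -12.0 kb each held all 3 sequences, with 3 and 5 matches to GGAA, while the windows of Lyl1 +36.4 kb and Ldb1 +30.5 kb held GGAA and CANNTG but no GATAA. Lmo2 -27.0 kb held 5 matches to GGAA and 4 to CANNTG. Fli1 +64.8 kb, which spans part of a Fli1 exon, held no match to GGAA or GATAA and 1 to CANNTG.

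Over all 114 distal regions at the loci, GGAA was found in 107 windows of 300 bases (93.9%), CANNTG in 95 (83.3%), GATAA in 43 (37.7%), TGTGGT, a RUNX sequence, in 36 (31.6%) and CAGCTG in 27 (23.7%). CAGCTG is also counted under CANNTG. The shares over the 90636 distal regions of the genome were 97.4% for GGAA, 83.0% for CANNTG, 42.3% for GATAA, 33.8% for TGTGGT and 20.3% for CAGCTG. The ETS, GATA and E-box letters stood together in 34 distal regions of the loci (29.8%) and in 33.9% of all distal regions. A match describes the letters and not a bound site.

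The loci held from 13.1 regions per 100 kb of window at Erg to 21.3 at Lyl1. Of the 159 regions, 36 (22.6%) were listed in all 8 libraries and 32 (20.1%) in 1 library, against 17.3% and 25.3% of all regions. Of the 32, 16 were listed in LSK- XistΔ/Δ replicate 1, the deepest library.

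**Figure D1:**
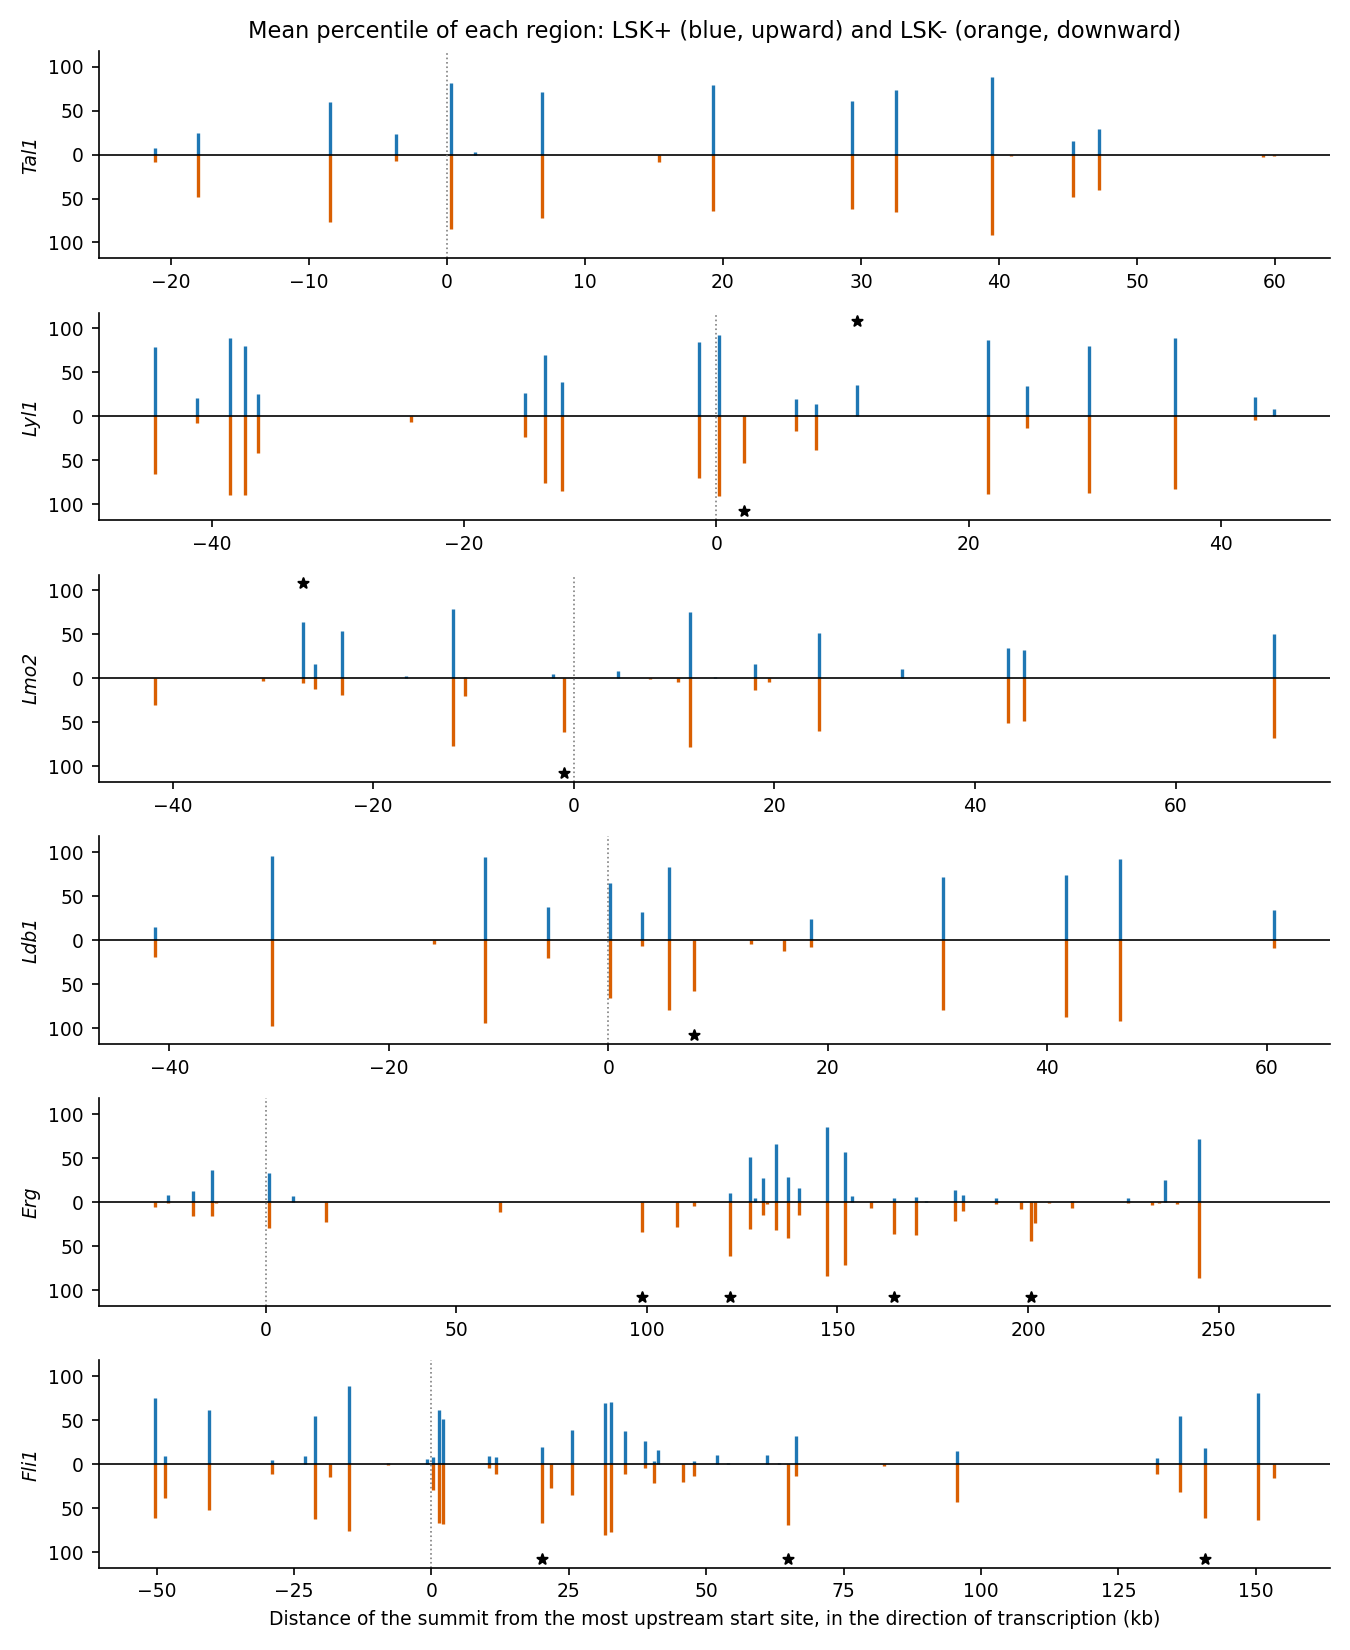
Every region of the 6 loci, drawn as a line at the distance of its summit from the most upstream start site (kb), with its mean percentile over 4 LSK+ libraries upward and over 4 LSK- libraries downward. Stars mark the 2 regions (above) and 10 regions (below) whose LSK+ and LSK- libraries did not overlap. The tallest lines point both ways, and 1 region lies between +15.8 and +98.7 kb of Erg.

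At Tal1, the promoter and the distal region near +39.5 kb were open at a high rank in every library on the full lists. The promoter region, Tal1 +0.3 kb (chr4:115056398-115057756), reached percentiles of 78.7 and 79.1 for LSK+ WT, 77.8 and 87.5 for LSK+ XistΔ/Δ, 78.2 and 85.3 for LSK- WT, and 86.5 and 87.5 for LSK- XistΔ/Δ. LSK+ and LSK- libraries overlapped, with a mean difference (LSK+ minus LSK-) of -3.62 (exact permutation p = 0.444). When an equal number of top peaks was ranked in each library, the promoter stood lower. It then ran from 38.5 in LSK+ XistΔ/Δ replicate 1 to 81.5 in LSK- WT replicate 2. Tal1 +39.5 kb (chr4:115095414-115096868, intergenic) reached 90.9 and 85.6 for LSK+ WT, 88.4 and 89.2 for LSK+ XistΔ/Δ, 91.7 and 87.0 for LSK- WT, and 96.7 and 88.9 for LSK- XistΔ/Δ. On the full lists all 8 libraries placed it above percentile 85, higher than the promoter in each of them. The cell types differed by -2.56 (exact permutation p = 0.278). With an equal number of top peaks this region stood at 67.8 to 89.8. It lies where the erythroid enhancer of Tal1 has been described.

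Tal1 +19.3 kb (chr4:115075379-115076000, intergenic) lies where the Tal1 stem cell enhancer has been described. It had percentiles of 88.5 and 57.5 for LSK+ WT, 90.6 and 77.9 for LSK+ XistΔ/Δ, 77.4 and 32.6 for LSK- WT, and 77.6 and 67.3 for LSK- XistΔ/Δ. The replicate 2 WT libraries were the lowest of each cell type, and the range of LSK+ overlapped that of LSK- through LSK+ WT replicate 2. The mean difference was 14.9 (exact permutation p = 0.278), with 12.1 among replicates 1 and 17.8 among replicates 2. The fold enrichment over the local background was 10.5 to 15.5 in LSK+ and 6.71 to 11.2 in LSK-. When an equal number of top peaks was ranked in each library, the values were 75.7 and 57.5 for LSK+ WT, 74.1 and 53.3 for LSK+ XistΔ/Δ, 46.2 and 15.1 for LSK- WT, and 31.2 and 31.4 for LSK- XistΔ/Δ, and the cell types no longer overlapped.

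The third distal region, Tal1 -8.5 kb (chr4:115047684-115048617), had 78.1 and 27.9 for LSK+ WT, 75.3 and 59.8 for LSK+ XistΔ/Δ, 85.1 and 54.7 for LSK- WT, and 88.6 and 78.5 for LSK- XistΔ/Δ. The LSK+ minus LSK- difference was -16.4, with overlapping ranges (exact permutation p = 0.278). A weaker region at Tal1 -3.7 kb was listed in all 4 LSK+ libraries at 10.9 to 39.2 and in 1 LSK- library at 30.7, and a region over a Tal1 exon at Tal1 +6.9 kb was listed in all 8 libraries at 62.5 to 81.1. Neither was among the regions chosen by the naming rule, and both are given here after their values were seen. No Tal1 region separated the cell types or the genotypes on the full lists.

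Lyl1 had the highest-ranked promoter of the 6 genes. Lyl1 +0.2 kb (chr8:84701099-84702028, over the UTR) had 93.0 and 91.4 for LSK+ WT, 94.5 and 91.5 for LSK+ XistΔ/Δ, 89.1 and 90.8 for LSK- WT, and 92.7 and 89.8 for LSK- XistΔ/Δ. The libraries spanned less than 6 percentile points, and the cell types differed by 1.97 (exact permutation p = 0.167). The ranks say little about a small change at this height, since fold enrichment in the same libraries ran from 5.77 to 10.4. Of its other promoter regions, Lyl1 +2.1 kb (chr8:84703451-84703933, in a Lyl1 intron) was listed in no LSK+ library and reached 68.9 and 23.2 for LSK- WT, and 62.0 and 57.7 for LSK- XistΔ/Δ. The difference was -53.0, with -65.4 among replicates 1 and -40.5 among replicates 2. Its fold enrichment was low, 2.87 to 3.87. The remaining promoter region, Lyl1 -1.4 kb, was listed in every library of both cell types. Its LSK+ minus LSK- difference was 29.7 among replicates 1 and 0.755 among replicates 2. It was not named by the rule and is given after its values were seen.

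Of the 3 leading distal regions near Lyl1, 2 lay inside introns of the neighbouring gene Nfix, so position alone does not tie them to Lyl1. Lyl1 +36.4 kb (chr8:84737480-84738266) had 91.7 and 80.0 for LSK+ WT, 93.2 and 89.9 for LSK+ XistΔ/Δ, 81.1 and 74.7 for LSK- WT, and 88.7 and 87.4 for LSK- XistΔ/Δ. Lyl1 +29.5 kb (chr8:84730510-84731459) had 89.4 and 61.6 for LSK+ WT, 92.7 and 77.8 for LSK+ XistΔ/Δ, 98.9 and 70.8 for LSK- WT, and 95.7 and 84.6 for LSK- XistΔ/Δ, with the replicates 1 above the replicates 2 in each group. In LSK- WT replicate 1 it was the highest distal region of the 6 loci. Both had overlapping ranges, with differences of 5.74 and -7.11 (exact permutation p = 0.111 and 0.444).

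The intergenic region Lyl1 -44.5 kb (chr8:84656468-84657436) had 81.2 and 67.7 for LSK+ WT, 82.3 and 86.1 for LSK+ XistΔ/Δ, 44.6 and 55.0 for LSK- WT, and 78.2 and 84.5 for LSK- XistΔ/Δ. Its lowest libraries were those of LSK- WT, and both comparisons overlapped, although the genotype difference of 20.6 had the smallest p the design allows (exact permutation p = 0.0556). Lyl1 +11.2 kb (chr8:84712446-84713094, Nfix intron) was listed in LSK+ only, with 29.1 and 40.2 for LSK+ WT, and 30.1 and 42.9 for LSK+ XistΔ/Δ and no peak in any LSK- library. The cell type difference was 35.6, with 29.6 among replicates 1 and 41.6 among replicates 2, and all 4 LSK+ libraries lay above all 4 LSK- libraries.

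Lmo2, which encodes the adaptor of the complex, has a distal and a proximal promoter. The proximal one, Lmo2 +11.6 kb (chr2:103969232-103971849, summit 0.55 kb upstream of its nearest start site), was open in every library, with 68.2 and 70.1 for LSK+ WT, 77.6 and 83.6 for LSK+ XistΔ/Δ, 65.9 and 75.7 for LSK- WT, and 84.8 and 86.6 for LSK- XistΔ/Δ. The cell types overlapped and differed by -3.36 (exact permutation p = 0.333). All 4 XistΔ/Δ libraries lay above all 4 WT libraries, by 13.2 on average (exact permutation p = 0.0556), but not with an equal number of top peaks, with ranks by fold enrichment or when only peaks over 50% or more of its length counted. Upstream, Lmo2 -0.9 kb (chr2:103956750-103958460), at the most upstream start site, was listed in no LSK+ library and had 50.0 and 47.2 for LSK- WT, and 88.5 and 59.5 for LSK- XistΔ/Δ. The cell type difference was -61.3, and it was -69.2 among replicates 1 and -53.3 among replicates 2. The cell types overlapped there with an equal number of top peaks and when only peaks over 50% or more of its length counted.

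The distal regions upstream of Lmo2 included Lmo2 -12.0 kb, open in all 8 libraries, and Lmo2 -27.0 kb, which ranked higher in LSK+. Lmo2 -12.0 kb (chr2:103944821-103946276, intergenic) had 90.9 and 50.9 for LSK+ WT, 90.6 and 82.9 for LSK+ XistΔ/Δ, 81.3 and 61.0 for LSK- WT, and 84.0 and 80.3 for LSK- XistΔ/Δ. The cell types overlapped there, with a difference of 2.16 (exact permutation p = 0.833). Lmo2 -27.0 kb (chr2:103930751-103931429, intergenic), whose window is printed above, had 62.9 and 49.0 for LSK+ WT, 81.5 and 62.9 for LSK+ XistΔ/Δ, 0 and 0 for LSK- WT, and 18.8 and 2.81 for LSK- XistΔ/Δ. It was higher in all 4 LSK+ libraries than in any LSK- library, by 58.7, the largest difference in that direction at the 6 loci (exact permutation p = 0.0556). The difference was 62.8 among replicates 1 and 54.6 among replicates 2, a shared direction that the lack of overlap fixes in advance. The cell types were also separated with an equal number of top peaks, where the LSK- libraries were all at 0.

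Downstream, Lmo2 +24.4 kb (chr2:103982072-103982847) had 63.8 and 0 for LSK+ WT, 70.4 and 69.9 for LSK+ XistΔ/Δ, 60.6 and 38.8 for LSK- WT, and 75.1 and 63.2 for LSK- XistΔ/Δ. Lmo2 +43.3 kb (chr2:104001056-104001590) had 67.8 and 3.87 for LSK+ WT, 67.1 and 0 for LSK+ XistΔ/Δ, 70.4 and 0 for LSK- WT, and 76.3 and 58.1 for LSK- XistΔ/Δ. Both lie in introns of 4931422A03Rik, and libraries without a peak there were replicates 2. Neither separated the cell types (exact permutation p = 0.778 and 0.667).

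Ldb1 had its strongest promoter region at an internal start site. Ldb1 +5.6 kb (chr19:46039490-46040437) had 78.2 and 84.4 for LSK+ WT, 80.2 and 90.2 for LSK+ XistΔ/Δ, 58.0 and 82.9 for LSK- WT, and 85.6 and 88.8 for LSK- XistΔ/Δ, with LSK- WT replicate 1 well below the rest. Ldb1 +0.1 kb (chr19:46044829-46045919), at the most upstream start site and over the UTR, had 69.2 and 63.1 for LSK+ WT, 56.8 and 71.8 for LSK+ XistΔ/Δ, 49.9 and 69.1 for LSK- WT, and 69.6 and 73.3 for LSK- XistΔ/Δ. The cell types overlapped at both, with differences of 4.42 and -0.254 (exact permutation p = 0.722 and 1). Inside the gene, Ldb1 +7.8 kb (chr19:46037131-46038026, intron) was absent from the 4 LSK+ lists and had 78.1 and 34.6 for LSK- WT, and 88.6 and 30.7 for LSK- XistΔ/Δ. The difference of -58.0 was made up of -83.3 among replicates 1 and -32.6 among replicates 2.

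Ldb1 had few distal regions, 8 in all, and 1 of them ranked high. Ldb1 +30.5 kb (chr19:46014449-46015108, intergenic) had 75.2 and 46.8 for LSK+ WT, 86.1 and 77.5 for LSK+ XistΔ/Δ, 84.4 and 66.2 for LSK- WT, and 85.4 and 80.2 for LSK- XistΔ/Δ, with LSK+ WT replicate 2 the lowest and a cell type difference of -7.66 (exact permutation p = 0.5). Ldb1 -5.5 kb and Ldb1 +60.7 kb, in introns of Pprc1 and Armh3, were listed in 6 and 4 libraries and reached at most 63.5 and 54.2. The strongest peaks in this window belonged to promoters of other genes.

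Erg, the first of the ETS genes, spans 227 kb and had the most regions, 43, of which 14 were listed in 1 library only and 8 of those in the deepest library, LSK- XistΔ/Δ replicate 1. Its leading promoter had the lowest median percentile of the 6 genes, although in LSK+ WT replicate 1 and LSK+ XistΔ/Δ replicate 1 it ranked above that of Fli1. The internal promoter Erg +127.1 kb (chr16:95458490-95459741) had 72.9 and 17.2 for LSK+ WT, 75.7 and 38.8 for LSK+ XistΔ/Δ, 41.2 and 3.92 for LSK- WT, and 38.4 and 40.7 for LSK- XistΔ/Δ. Replicates 2 of WT were far below replicates 1, and the cell types overlapped, with a difference of 20.1 (exact permutation p = 0.278), 34.5 among replicates 1 and 5.69 among replicates 2. At the most upstream start site, Erg +1.0 kb (chr16:95584688-95585913) had 42.9 and 0 for LSK+ WT, 31.2 and 56.8 for LSK+ XistΔ/Δ, 1.30 and 26.5 for LSK- WT, and 46.0 and 44.9 for LSK- XistΔ/Δ. A further start site was covered by Erg +61.6 kb in LSK- XistΔ/Δ replicate 1 only, at 43.0.

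The open regions of Erg clustered beyond the internal promoter. Erg +147.3 kb (chr16:95438910-95440341, intron, 19.9 kb downstream of the internal start site) had 90.7 and 71.0 for LSK+ WT, 92.6 and 85.9 for LSK+ XistΔ/Δ, 90.8 and 72.3 for LSK- WT, and 90.6 and 82.2 for LSK- XistΔ/Δ. It ranked above the Erg promoters in every library, and the cell types overlapped (exact permutation p = 0.778). Erg +151.9 kb had 70.4 and 9.74 for LSK+ WT, 77.1 and 72.7 for LSK+ XistΔ/Δ, 82.8 and 51.7 for LSK- WT, and 75.6 and 77.5 for LSK- XistΔ/Δ, again lowest in LSK+ WT replicate 2. Past the gene's end, Erg +244.9 kb (chr16:95341307-95342270, in an intron of Gm31641) had 79.4 and 43.0 for LSK+ WT, 79.8 and 83.2 for LSK+ XistΔ/Δ, 90.7 and 78.8 for LSK- WT, and 90.2 and 85.4 for LSK- XistΔ/Δ. The LSK+ minus LSK- difference was -14.9 (exact permutation p = 0.111), with overlap on the full lists and none with an equal number of top peaks, where it read 56.2 and 43.0 for LSK+ WT, 44.0 and 64.4 for LSK+ XistΔ/Δ, 77.7 and 73.3 for LSK- WT, and 70.0 and 69.4 for LSK- XistΔ/Δ.

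Erg also held 4 distal regions, all in its introns, in which every LSK- library lay above every LSK+ library. Erg +200.9 kb (chr16:95385383-95385983) was listed in no LSK+ library and had 43.4 and 25.4 for LSK- WT, and 67.2 and 39.1 for LSK- XistΔ/Δ. Erg +121.8 kb (chr16:95464583-95464961) was listed in 1 LSK+ library, XistΔ/Δ replicate 2, at 43.0, and had 54.2 and 49.7 for LSK- WT, and 57.0 and 82.6 for LSK- XistΔ/Δ. The differences were -43.8 and -50.1. Erg +164.8 kb and Erg +98.7 kb differed by -31.2 and -34.4, and the latter rested on replicates 1, with -66.5 against -2.22 among replicates 2. None of these 4 regions kept its separation with an equal number of top peaks.

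Fli1, the other ETS gene, had its leading distal region upstream. Fli1 -14.9 kb (chr9:32556066-32556685, intergenic) had 93.6 and 76.5 for LSK+ WT, 95.2 and 90.6 for LSK+ XistΔ/Δ, 78.9 and 64.6 for LSK- WT, and 79.7 and 81.1 for LSK- XistΔ/Δ. It ranked above the leading Fli1 promoter region, Fli1 +1.4 kb, in every library. Another promoter region, Fli1 +2.2 kb, had a higher −log10 p than Fli1 -14.9 kb in LSK- WT replicate 2 (37.2 against 28.1). The same held in LSK- XistΔ/Δ replicate 2 (78.7 against 58.4). Fli1 +2.2 kb was not named by the rule and is given after its values were seen. The LSK+ mean of Fli1 -14.9 kb was higher by 12.9 (exact permutation p = 0.111), with 15.1 and 10.7 among replicates 1 and 2. Only LSK+ WT replicate 2 overlapped the LSK- range. With an equal number of top peaks the values were 86.4 and 76.5 for LSK+ WT, 86.8 and 80.1 for LSK+ XistΔ/Δ, 49.7 and 55.4 for LSK- WT, and 37.8 and 60.4 for LSK- XistΔ/Δ, without overlap. The fold enrichment was 13.7 to 22.6 in LSK+ and 10.8 to 16.8 in LSK-.

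The leading promoter region Fli1 +1.4 kb (chr9:32540075-32541103, in an intron just past the start site) had 60.7 and 36.1 for LSK+ WT, 74.2 and 75.3 for LSK+ XistΔ/Δ, 69.0 and 63.2 for LSK- WT, and 65.4 and 68.4 for LSK- XistΔ/Δ. The cell types overlapped (difference -4.92, exact permutation p = 0.778), and LSK+ WT replicate 2 was the lowest library. Further upstream, Fli1 -40.5 kb (chr9:32581759-32582533) had 78.8 and 24.1 for LSK+ WT, 85.4 and 58.5 for LSK+ XistΔ/Δ, 70.6 and 0 for LSK- WT, and 71.3 and 64.9 for LSK- XistΔ/Δ. Fli1 -50.4 kb (chr9:32591708-32592285) had 84.3 and 57.2 for LSK+ WT, 81.9 and 75.4 for LSK+ XistΔ/Δ, 84.6 and 0 for LSK- WT, and 82.5 and 77.5 for LSK- XistΔ/Δ. Both were missing from LSK- WT replicate 2 and were otherwise listed in each library.

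In the body of Fli1 and beyond its end, 3 distal regions were higher in all 4 LSK- libraries. Fli1 +64.8 kb (chr9:32476431-32477078, over an exon) was in no LSK+ list and had 78.2 and 57.6 for LSK- WT, and 87.4 and 53.2 for LSK- XistΔ/Δ, for a difference of -69.1, the largest at the 6 loci. Fli1 +20.2 kb (chr9:32520967-32521917, intron) had 40.7 and 0 for LSK+ WT, 21.6 and 15.2 for LSK+ XistΔ/Δ, 77.4 and 53.1 for LSK- WT, and 75.7 and 62.5 for LSK- XistΔ/Δ, a difference of -47.8. Fli1 +140.8 kb (chr9:32400446-32401334, intergenic) had 14.2 and 0 for LSK+ WT, 29.8 and 29.0 for LSK+ XistΔ/Δ, 76.2 and 42.4 for LSK- WT, and 79.6 and 47.7 for LSK- XistΔ/Δ, a difference of -43.2. The first and second of these were also separated with an equal number of top peaks. All 3 differed in the same direction within each run, which follows from the rule that chose them and adds nothing to it.

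**Figure D2:**
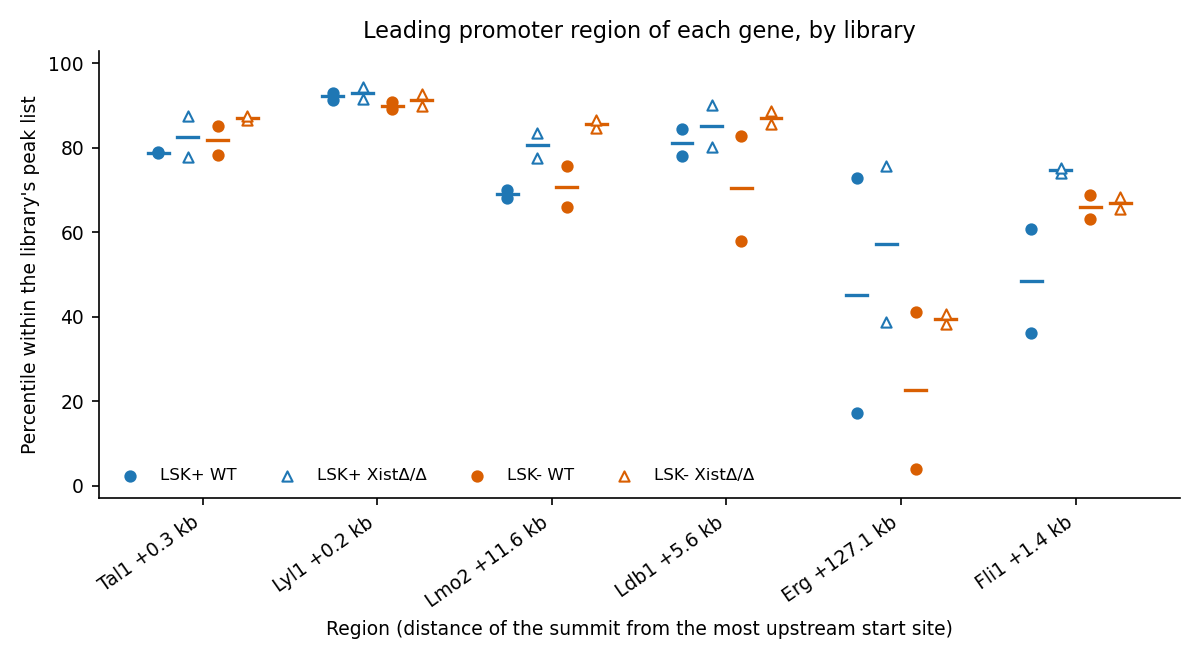
Percentile of the leading promoter region of each gene in each of the 8 libraries, with bars at group means (2 libraries each). Lyl1 lies at 89.1 to 94.5 in all libraries, Erg spreads from 3.92 to 75.7, and the open triangles (XistΔ/Δ) lie above the filled circles (WT) at Lmo2 in both colours.

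Counted over the loci, 2 of 159 regions (1.26%) were higher in all 4 LSK+ libraries than in all 4 LSK- libraries, against 2.05% of all regions of the genome. The reverse held for 10 regions (6.29%), against 3.57% of all regions. With libraries paired by replicate number, which is also the run, 16 regions (10.1%) were higher in LSK+ in 4 of 4 pairs, against 6.69% of all regions, and 19 (11.9%) were higher in LSK-, against 9.62%. The LSK+ share at the loci was thus below the background without the pairing and above it with the pairing. Of the 114 distal regions, 2 were higher in LSK+ and 7 in LSK-, against backgrounds of 2.1% and 3.9% of distal regions. Among the 10 regions higher in LSK- were 3 promoters (Lyl1 +2.1 kb, Lmo2 -0.9 kb and Ldb1 +7.8 kb), 4 Erg regions and 3 Fli1 regions. None was at Tal1. For each of the 12 regions the exact permutation p was 0.0556, the smallest possible. Libraries without overlap always give that value, for cell type and for genotype, so it adds nothing to the rule that chose these regions. The median LSK+ minus LSK- difference was -1.82 over the 159 regions and -1.09 over all regions.

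**Figure D3:**
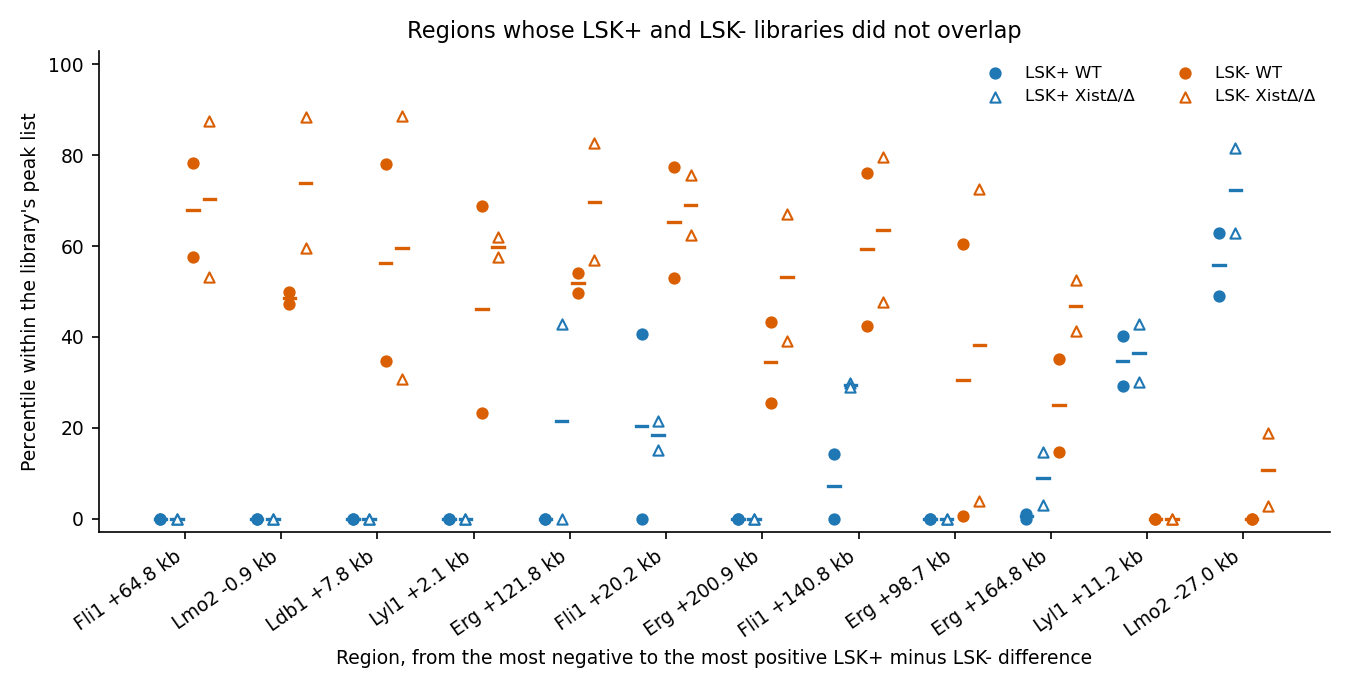
Percentiles in each library of the 12 regions at the 6 loci whose 4 LSK+ (blue) and 4 LSK- (orange) libraries did not overlap, with bars at group means of 2 libraries. Most orange points spread widely between replicates, and 6 of the 10 regions on the left were listed in no LSK+ library.

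The split between the cell types at the loci leaned the other way when lists of unequal length were cut to the same number of top peaks. With the top 29829 peaks of each library, the length of the shortest list, 8 regions were higher in LSK+ and 3 in LSK-, against 3.13% and 2.62% of all regions. Besides Lmo2 -27.0 kb, the 8 were Tal1 +19.3 kb, Lyl1 +36.4 kb, Fli1 -14.9 kb, Erg +134.0 kb, Fli1 +136.2 kb and the promoter regions of Pdzk1ip1 (Tal1 +32.6 kb) and Kcnj1 (Fli1 +150.3 kb). The 3 were Fli1 +64.8 kb, Fli1 +20.2 kb and Erg +244.9 kb. Those not named by the rule were chosen after their values were seen. On both scales, Lmo2 -27.0 kb was higher in LSK+, and Fli1 +64.8 kb and Fli1 +20.2 kb were higher in LSK-. The other 9 regions separated on the full lists, the promoter regions Lyl1 +2.1 kb, Lmo2 -0.9 kb and Ldb1 +7.8 kb among them, overlapped with an equal number of top peaks. Under the requirement of 50% cover, Lyl1 +11.2 kb and Lmo2 -27.0 kb stayed separated, and of the 10 regions higher in LSK- only Lyl1 +2.1 kb and Erg +121.8 kb did. With −log10 q of at least 5, 2 regions were higher in LSK+ and 8 in LSK-, against 1.494% and 3.183% of all regions. Erg +164.8 kb and Erg +98.7 kb then overlapped. Ranks by fold enrichment gave 2 higher in LSK+ and 15 in LSK-, against 1.973% and 4.002% of all regions. Both settings thus kept more regions higher in LSK-, as on the full lists. Erg +134.0 kb, in an Erg intron, read 35.2 and 54.7 for LSK+ WT, and 23.0 and 34.3 for LSK+ XistΔ/Δ with an equal number of top peaks and 0 in the 4 LSK- libraries. On the full lists it read 69.5 and 54.7 for LSK+ WT, and 72.2 and 69.0 for LSK+ XistΔ/Δ, and 0 to 56.2 in LSK-, with overlap.

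**Figure D4:**
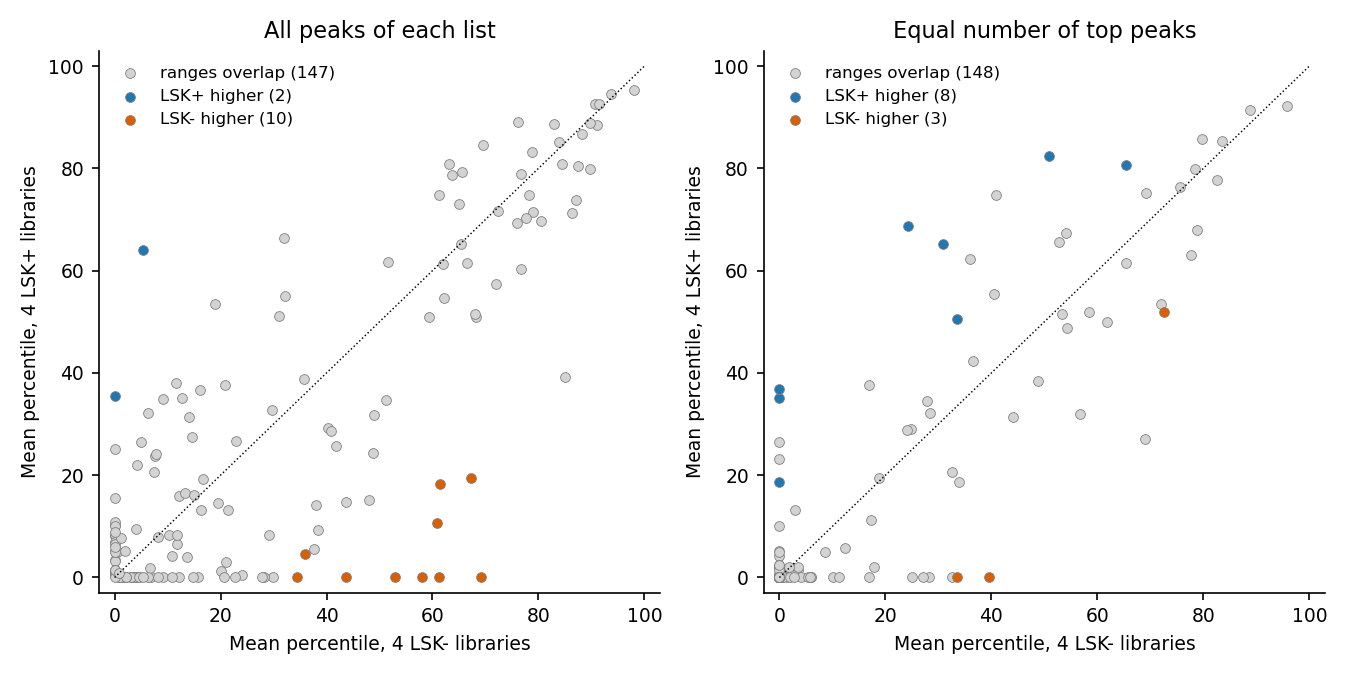
Mean percentile of each of the 159 regions over 4 LSK+ libraries against 4 LSK- libraries, ranked over all peaks (left) and over the same number of top peaks from every library (right), with a dotted line of equality. Coloured points are regions without overlap between the cell types, 2 and 10 on the left and 8 and 3 on the right.

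Single libraries also moved these counts. Without LSK+ WT replicate 2, the shortest list, 16 regions were higher in LSK+ (9.96% of all regions), and without LSK- XistΔ/Δ replicate 1, the deepest, 5 were (2.67% of all regions). Without LSK+ XistΔ/Δ replicate 2 (5.26% of all regions) or without LSK- WT replicate 2 (9.37%), 16 regions were higher in LSK-. An erythroid marker moved with the same comparison. The promoter region of Hbb-bs, a globin gene, stood at 36.5 to 84.1 in the 4 LSK- libraries and at 0 in each LSK+ library. Its part in the differences at the 6 loci was not tested.

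Among markers of the sorted populations, promoters did not separate the gates in most cases. Of 8 genes for LSK+ (Ly6a, Hlf, Mecom, Procr, Hoxb5, Meis1, Flt3 and Slamf1), none was higher in all LSK+ libraries, against 2.02% of protein-coding promoters. Slamf1 was higher in LSK-, against 1.82%, at 0 to 3.13 in LSK+ and 4.77 to 31.8 in LSK-. Ly6a, which encodes SCA-1, had a promoter peak in 1 library only, an LSK- one. Means were higher in LSK+ for 4 of the 8 and in LSK- for 4. Of 8 genes for LSK-, Gata1 was higher in LSK-, against the same 1.82%. Means were higher in LSK- for 6 of these 8 and in LSK+ for 2, with a median LSK+ minus LSK- difference of -17.2. The promoter regions of Kit and Cd34 were listed in all 8 libraries. Of 14 genes of other cells, Cd3e, Cd4, Cd8a, Cd79a and Ly6g had no promoter region. The summed percentiles of the 14 ran from 203 to 449 in LSK+ and from 336 to 530 in LSK-.

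The XistΔ/Δ and WT libraries were compared in the same way. Of the 159 regions, 3 (1.89%) were higher in all 4 XistΔ/Δ libraries than in all 4 WT libraries, against 3.23% of all regions, and 0 were higher in WT, against 0.00243%. With libraries paired by replicate number, 31 regions (19.5%) were higher in XistΔ/Δ in 4 of 4 pairs, against 16.3% of all regions. Over distal regions, 1 of 114 was higher in XistΔ/Δ, against 2.57%, and 0 in WT, against 0.0011%. The 3 regions were Lmo2 +11.6 kb, Fli1 -21.1 kb and the promoter of G430095P16Rik inside Nfix (Lyl1 +21.5 kb). Fli1 -21.1 kb (chr9:32562353-32562890, intergenic) had 62.1 and 0 for LSK+ WT, 82.6 and 73.7 for LSK+ XistΔ/Δ, 64.2 and 42.1 for LSK- WT, and 75.1 and 67.1 for LSK- XistΔ/Δ, a difference of 32.5, with 15.7 among replicates 1 and 49.3 among replicates 2. The G430095P16Rik promoter had 88.6 and 77.9 for LSK+ WT, 89.5 and 91.1 for LSK+ XistΔ/Δ, 83.7 and 83.7 for LSK- WT, and 92.3 and 92.9 for LSK- XistΔ/Δ, a difference of 7.98. Both overlapped between the genotypes with an equal number of top peaks, as did Fli1 -21.1 kb with 50% cover and the G430095P16Rik promoter with ranks by fold enrichment.

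The genotype difference changed with the ranking of lists of unequal length. The mean percentile was higher in XistΔ/Δ at 150 of the 159 regions and in WT at 9. The same count was not made over all regions. The median difference was 8.41 over the loci and 7.30 over all regions, so the lean toward XistΔ/Δ was not particular to the loci. With an equal number of top peaks, 0 regions at the loci were higher in XistΔ/Δ and 1, the Ier2 promoter (Lyl1 -38.6 kb), was higher in WT, against 0.11% and 0.086% of all regions. The Lmo2 proximal promoter then overlapped between the genotypes, and the mean genotype difference changed sign at the leading promoters of Tal1 (-4.69), Lyl1 (-4.02), Erg (-6.71) and Fli1 (-5.54). Summed percentiles of the 14 genes of other cells were 203 to 432 in WT and 444 to 530 in XistΔ/Δ. Those of the 8 LSK+ genes were 228 to 355 and 421 to 478. Kit and Cd34 had 155.5 to 168.7 and 169.2 to 182.4, while the 8 LSK- genes overlapped, at 188 to 468 and 434 to 561. The median genotype difference over all protein-coding promoters was 6.09. Of the 8 LSK+ genes 1 (Hoxb5, listed in no WT library) was higher in all 4 XistΔ/Δ libraries. So were 2 of the 8 LSK- genes (Mpo and Elane), against 7.36% of protein-coding promoters. The part of these markers in the genotype differences was not tested. Leaving out 1 library gave 3 to 15 regions higher in XistΔ/Δ. The highest counts were 15 without LSK+ XistΔ/Δ replicate 1 (against 6.75% of all regions), 14 without LSK+ WT replicate 1 (6.70%) and 12 without LSK- WT replicate 1 (8.03%). The count was 9 without LSK- XistΔ/Δ replicate 1 (4.39%), 7 without LSK- XistΔ/Δ replicate 2 (5.34%) and 5 without LSK+ XistΔ/Δ replicate 2 (4.53%). The share over all regions thus moved as well.

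The lists held 94 and 52 peaks at the loci for LSK+ WT, 104 and 98 for LSK+ XistΔ/Δ, 99 and 67 for LSK- WT, and 127 and 96 for LSK- XistΔ/Δ. XistΔ/Δ libraries had 28.2 more peaks on average (exact permutation p = 0.111), with 19 more among replicates 1 and 37.5 more among replicates 2. With an equal number of top peaks the libraries had 42 to 54, and the genotype difference was -1 (exact permutation p = 0.889). LSK+ libraries had 10.2 fewer peaks than LSK- libraries (exact permutation p = 0.5), and 1.42 more without LSK+ WT replicate 2.

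**Figure D5:**
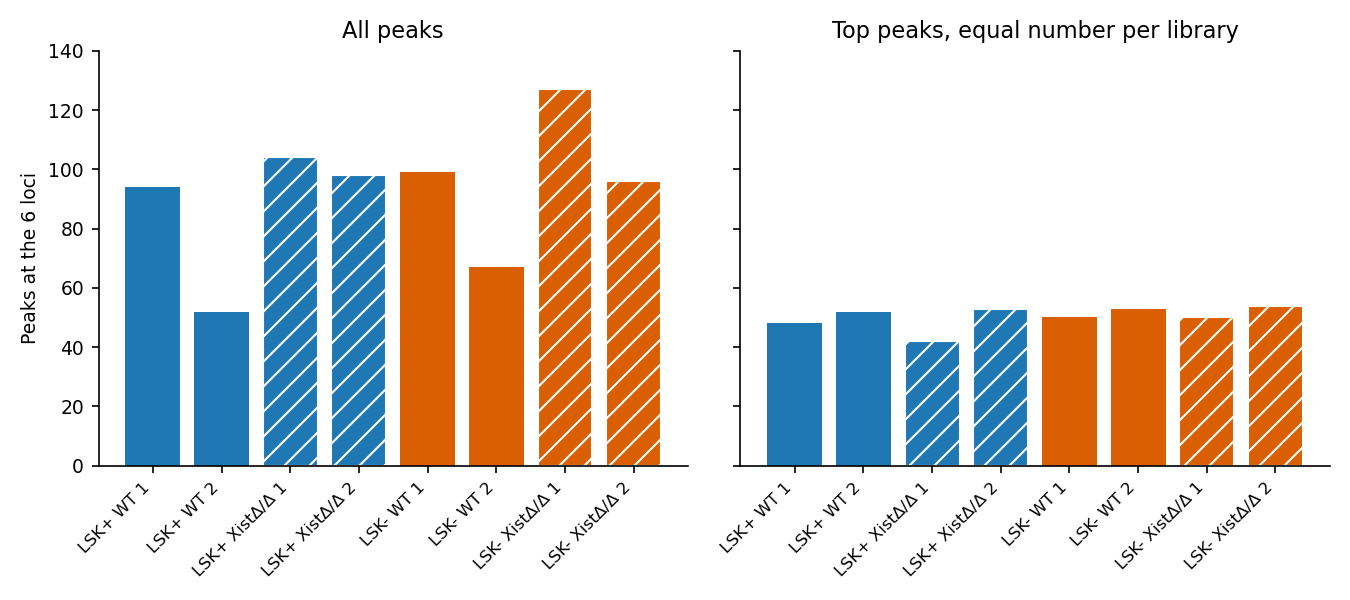
Number of peaks at the 6 loci in each library, from all listed peaks (left) and from the same number of top peaks in every list (right), in LSK+ (blue) and LSK- (orange), with XistΔ/Δ hatched and the replicate number after each name. The left bars run from 52 to 127 and the right bars from 42 to 54.

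Among 38 partners and relatives of these factors, 1 promoter was higher in all LSK+ libraries, 2 in all LSK- libraries and 4 in all XistΔ/Δ libraries, against 2.02%, 1.82% and 7.36% of 16212 protein-coding promoters, and none was higher in WT, against 0.00617%. Gata1, the erythroid and megakaryocytic GATA factor, was 1 of the 2 higher in LSK- and was listed there only, at 28.7 to 72.7. The other was Gabpa, an ETS gene, with means of 97.0 in LSK- and 93.1 in LSK+. Id1, Id2, Etv6 and Spi1, the genes of helix-loop-helix inhibitors and of ETS factors, were the 4 higher in XistΔ/Δ. The remaining heptad genes overlapped between the cell types. The leading Runx1 promoter had means of 80.5 in LSK+ and 80.4 in LSK-, and that of Gata2 had 26.3 in LSK+ and 43.8 in LSK-.

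The window of 50 kb was set by distance alone. The region nearest to an edge on the inside was Fli1 -50.4 kb, 0.576 kb from it and at a median percentile of 79.7, and the nearest on the outside was 0.612 kb beyond the Erg window, in 1 library only. At 0.804 kb outside the Lmo2 window lay a region with a median of 61.9, listed in 7 libraries.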

How the data were processed

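ATAC-seq peak lists of 8 libraries were analysed, with groups and replicate numbers read from the sample titles. The replicate number coincides with the run code in the file names, and deviations of libraries with the same number correlated between groups at 0.0576 to 0.427, above 0.1 in 5 of 6 group pairs. The authors trimmed reads with Trim Galore, aligned them to mm10 with Bowtie2 2.3.5.1, removed mitochondrial reads and reads of mapping quality below 30 with SAMtools 1.10, and called peaks per library with MACS2 2.2.7.1 at a q-value of 0.01. No control, duplicate removal or Tn5 shift is stated. The deposited lists hold for each peak a fold enrichment (a ratio over local background), the −log10 p-value, the −log10 q-value, an integer score and a summit offset. Read counts per peak were not used here. Depth was taken from the fragment pileup solved from the deposited fold and −log10 p, which matched 100% of 3000 peaks sampled per library.

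Ranks, regions and tests were computed in Python 3.11.15 with pandas 2.3.3, numpy 2.4.6 and scipy 1.17.1. The calls and the pileup step were tested on simulated data. The simulated calls had no unlisted peaks and no differences in depth or run, so they do not test the call under those conditions. Alternatives changed the ranking, the q-value limit, the overlap, the window, the promoter distance, the libraries and the pairing. Named were, for each gene, its leading promoter region, those at further start sites, the 3 distal regions with the highest median percentile, and regions without overlap between cell types or genotypes, up to 5 per gene and comparison. The members, lists and tests were chosen with earlier results of these data known. No adjusted p-values are given because no single test could reach 0.05. Single values of some listed genes are not reported here.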

Additional observations from a re-analysis of the deposited data

How the results depend on the processing

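Ranking an equal number of top peaks changed the counts of regions without overlap to 8 higher in LSK+, 3 in LSK-, 0 in XistΔ/Δ and 1 in WT. Requiring a peak to cover at least 50% of the region gave 3 higher in LSK- and 1 in XistΔ/Δ, against 0.948% and 1.61% of all regions. Ranking by fold enrichment gave 2 higher in LSK+, 15 in LSK- and 4 in XistΔ/Δ. A limit of −log10 q of at least 5 gave 2, 8 and 4. Windows of 20 kb held 1 region higher in LSK+, with the same background of 2.05%. With the replicate block, counted as the same sign in 4 of 4 pairs of equal replicate number, 16 regions were higher in LSK+, 19 in LSK- and 31 in XistΔ/Δ, against 6.69%, 9.62% and 16.3% of all regions. The smallest p under the block was 0.125. Leaving out 1 library gave 2 to 16 regions higher in LSK+, 10 to 16 in LSK- and 3 to 15 in XistΔ/Δ, while the share of all regions ran from 2.08% to 9.96%, from 3.58% to 9.37% and from 3.36% to 8.03%.

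No promoter test could reach 0.05. The sign changed for the peak count by genotype with an equal number of top peaks (-1), and for LSK+ minus LSK- at Lyl1 ranked by fold enrichment (-8.72), at Lmo2 with 50% cover (20.9) and at Fli1 with an equal number of top peaks (3.89). For XistΔ/Δ minus WT the sign changed at Tal1 (-4.69), Lyl1 (-4.02), Erg (-6.71) and Fli1 (-5.54) with an equal number of top peaks, and at Lyl1 ranked by fold enrichment (-2.19). Without 1 library, the peak count by cell type ran from -20.3 to 1.42, the Ldb1 difference from -2.52 to 7.75 and the Fli1 difference from -9.50 to 3.57. The causes were not tested. Distal regions without overlap lost it 14 times for cell type and 2 times for genotype over the alternatives, with no change of sign. A region at 0 had no listed peak in that library, which does not show that it was closed.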

Other observations

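Several of the strongest regions in the 6 windows were promoters of neighbouring genes, which were listed in all 8 libraries. The promoter of Nolc1, which encodes a nucleolar protein (Ldb1 -30.7 kb), stood at a median percentile of 97.3. That of Pprc1, a transcriptional coactivator gene (Ldb1 -11.2 kb), had a median of 94.9. The Kcnj1 promoter region (Fli1 +150.3 kb), at a potassium channel gene, stood at 62.9 to 92.5 in LSK+ and at 45.1 to 69.8 in LSK-, with overlap between the cell types on the full lists.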
